A study of Homo sapiens with 4 samples.

Results

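Narrow promoter regions are stretches of chromatin of under 2000 bases that carry H3K27ac, the acetylated form of lysine 27 of histone H3, and overlap the start of exactly 1 gene. They were taken from the authors' deposited table of H3K27ac regions in A375 cells, a human line established from a melanoma. Lines that repeat a region for another gene were merged, the width was the end minus the start, and a distance of 0 to the assigned gene was read as overlap with its start. Members were thus chosen by region width and distance to a start, and widths, and levels that follow from them, are descriptions. The rule kept 2179 of 91107 distinct regions, each at the start of a different gene. The labels describe 4 chromatin immunoprecipitation libraries from A375 cells, all made with an antibody to H3K27ac. 2 came from cells given vehicle (isopropanol) and 2 from cells given 1 mM octanoate, a medium-chain fatty acid, and both treatments lasted 48 hours. The labels do not say whether libraries of a group came from separate cultures, and all results are for 1 cell line.

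Histone acetyltransferases place H3K27ac on the nucleosomes beside active promoters and enhancers, and histone deacetylases remove it. The acetyl group comes from acetyl-CoA, to which fatty acids contribute when they are oxidised. At an active promoter the mark usually flanks the start site on both sides and reaches further into the transcribed gene, and wide domains are known from highly transcribed genes and from genes of cell identity.

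For each region the authors' deposited table gives a mean level (the mean normalized count) and a log2 fold change with a standard error, a p-value and an adjusted p, but nothing for single libraries. No spread between replicates could therefore be computed, the depth of each library is unknown, and the errors below are the standard errors of the authors' model. The header does not name the numerator of the fold change, so changes are called positive or negative and not gains or losses under octanoate. The authors' deposited table holds adjusted values for 36436 regions, all with a mean level of at least 18.44. It holds them for 1565 of the 2179 narrow promoter regions (71.8%), called the tested regions here, whose lowest mean level was 18.49. Since every region was measured in the same libraries, differences between sets of regions are given as descriptions and were not tested.

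Of 14 listed marker genes of melanoma cells, 10 had a region at their start in the authors' deposited table, among them SOX10, the neural crest regulator of melanocytes (mean level 774), AXL, a receptor kinase of the invasive state (516), and MITF, the master regulator of melanocytes (98.4). Of the pigment genes, PMEL had a start region, shared with another gene (mean level 269), and MLANA, TYR, DCT and TYRP1 had none. Among 18 markers of other cell types, CD8A of T cells and APOA1 of hepatocytes had a start region, both narrow and without an adjusted p (mean levels 10.6 and 9.80). Longer lists of such markers, described at the end, had 12 single-gene start regions, of which 7 were narrow. These counts cover gene starts alone. Among the 14 and 18 markers, some without a start region had other regions assigned to them. Mean levels of these reached 164 at PECAM1 of endothelial cells and 48.5 at the pigment gene MLANA. The EGFR region was the 1 narrow region among the melanoma markers, with a mean level of 50.5 and a log2 fold change of 0.54 ± 0.30 (standard error, adjusted p 0.301).

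Sequences upstream of 10 gene starts are shown, namely all with a matched RefSeq promoter among the called regions (7) and the named regions of highest mean level (3), because the results turn on these regions. Each is the 150 bases before the start of the gene in RefSeq's GRCh38.p14 (the same coordinates as hg38 on these chromosomes), 5′ to 3′ on the strand of the gene, and each start lay inside the narrow region. Capitals mark matches, on either strand, to 1 of 11 short motifs spelled out further on.
HMX3, chr10:123135820-123135969, forward strand: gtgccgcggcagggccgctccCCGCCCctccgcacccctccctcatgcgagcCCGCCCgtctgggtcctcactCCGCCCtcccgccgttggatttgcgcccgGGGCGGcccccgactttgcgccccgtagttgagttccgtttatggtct
NPAS1, chr19:47019687-47019836, forward strand: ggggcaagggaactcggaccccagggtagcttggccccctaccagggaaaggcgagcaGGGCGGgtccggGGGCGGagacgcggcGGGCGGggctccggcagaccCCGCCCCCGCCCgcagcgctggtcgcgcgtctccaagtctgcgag
TRPM4, chr19:49157642-49157791, forward strand: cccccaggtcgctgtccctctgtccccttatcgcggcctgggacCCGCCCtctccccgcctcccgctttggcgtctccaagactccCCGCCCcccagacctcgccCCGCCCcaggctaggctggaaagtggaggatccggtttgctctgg
ADM2, chr22:50481393-50481542, forward strand: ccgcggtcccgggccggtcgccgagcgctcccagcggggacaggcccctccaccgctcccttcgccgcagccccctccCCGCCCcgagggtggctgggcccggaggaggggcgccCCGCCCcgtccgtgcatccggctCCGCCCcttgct
SEMA4F, chr2:74654097-74654246, forward strand: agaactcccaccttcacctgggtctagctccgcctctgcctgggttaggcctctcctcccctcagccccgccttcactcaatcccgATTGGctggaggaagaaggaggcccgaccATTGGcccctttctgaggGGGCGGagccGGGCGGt
FGF5, chr4:80266438-80266587, forward strand: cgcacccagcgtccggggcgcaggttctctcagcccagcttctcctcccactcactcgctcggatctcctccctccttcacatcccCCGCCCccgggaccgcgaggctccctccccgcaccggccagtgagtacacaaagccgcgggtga
NTSR1, chr20:62708686-62708835, forward strand: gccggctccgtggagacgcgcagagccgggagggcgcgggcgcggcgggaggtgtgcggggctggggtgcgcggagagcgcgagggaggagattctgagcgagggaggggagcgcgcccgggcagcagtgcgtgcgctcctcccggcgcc
PIGC, chr1:172444070-172444219, reverse strand: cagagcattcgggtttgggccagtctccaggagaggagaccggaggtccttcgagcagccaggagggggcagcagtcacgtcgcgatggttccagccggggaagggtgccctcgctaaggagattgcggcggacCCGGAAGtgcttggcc
IL27RA, chr19:14031612-14031761, forward strand: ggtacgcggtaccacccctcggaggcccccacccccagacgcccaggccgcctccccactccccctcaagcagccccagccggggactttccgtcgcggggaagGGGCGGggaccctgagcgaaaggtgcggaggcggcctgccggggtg
DSTYK, chr1:205211703-205211852, reverse strand: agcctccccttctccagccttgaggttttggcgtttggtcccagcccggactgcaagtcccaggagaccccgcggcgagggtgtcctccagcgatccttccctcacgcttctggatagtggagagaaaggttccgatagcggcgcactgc
The first 4 carry several GC boxes (GGGCGG or CCGCCC) and the SEMA4F sequence also holds the CCAAT box as ATTGG, its reverse complement, at 2 places. The FGF5 and IL27RA sequences have 1 GC box each, and the NTSR1 sequence has no match in these 150 bases. The PIGC sequence has an ETS match close to the start, and the DSTYK sequence has no match in this window. GC content over the 300-base promoters was 73.7% at HMX3, 72.0% at NPAS1, 71.0% at TRPM4, 76.7% at ADM2, 63.0% at SEMA4F, 67.0% at FGF5 and 81.7% at NTSR1 among the calls, and 63.0% at PIGC, 64.7% at IL27RA and 56.0% at DSTYK.

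Narrow promoter regions had less signal per base as well as a smaller size. Their widths ran from 200 to 1999 bases with a median of 1440, and their mean levels in the authors' deposited table from 0.711 to 103 with a median of 27.4. Per 1000 bases the median level was 19.7, compared with 26.0 in 5267 mid-width single-gene start regions (2000 to under 5000 bases) and 27.1 in 1820 broad ones (5000 bases or more). Level counts reads over the whole region and so grows with width, but the value per 1000 bases rose with width too: it was 15.7 at 200 to 499 bases, 16.6 at 500 to 999, 19.5 at 1000 to 1499 and 22.4 at 1500 to 1999, and 25.4 at 2000 to 2499 bases just outside the limit.

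Among the regions with the highest level were those at AP5B1, a subunit of an adaptor protein complex (mean level 103), RP4-614O4.5 (103), PIGC, an enzyme of GPI anchor synthesis (91.8), IL27RA, a cytokine receptor (86.5), and the kinase gene DSTYK (84.7), in the authors' deposited table. In the authors' deposited table the log2 fold changes of these 5 ran from 0.23 ± 0.24 (standard error) at PIGC and 0.23 ± 0.27 at RP4-614O4.5 to 0.62 ± 0.26 at IL27RA, and none passed the threshold. The 3 widest members, at ZNF141, TUBB2A and KDELR3, were 1999 bases wide with mean levels of 64.2, 47.1 and 45.5. Just outside the limit lay BID and MRS2 at 2000 bases and SNAPIN at 2001, with 42.7, 42.6 and 77.7. The narrowest members with an adjusted p were at RARRES3 (635 bases), ZNF471 (695) and ZNF287 (699), with log2 fold changes of -0.14 ± 0.41, 0.22 ± 0.39 and 0.40 ± 0.42 in the authors' deposited table.

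The comparison of octanoate with vehicle was examined next. Nearly all narrow promoter regions had a positive fold change, larger at the median than that of any wider class of promoter. Among the 1565 tested in the authors' deposited table, 1519 (97.1%) were positive and 46 negative, where 87.3% of all 36436 regions were positive. The positive share was slightly higher in the other promoter classes. It was 98.2% in mid-width single-gene start regions, 98.3% in broad ones and 98.3% in start regions shared by genes. Away from starts it was 83.2%. The median log2 fold change of narrow promoter regions was 0.49, a ratio of 1.41, with 0.33 and 0.68 at the quartiles and -0.49 and 1.87 at the extremes. The medians were 0.36 in mid-width single-gene start regions, 0.29 in broad ones, 0.31 in start regions shared by genes, 0.31 away from starts and 0.32 over all regions. Narrow promoter regions without an adjusted p had a median of 0.61.

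**Figure D1:**
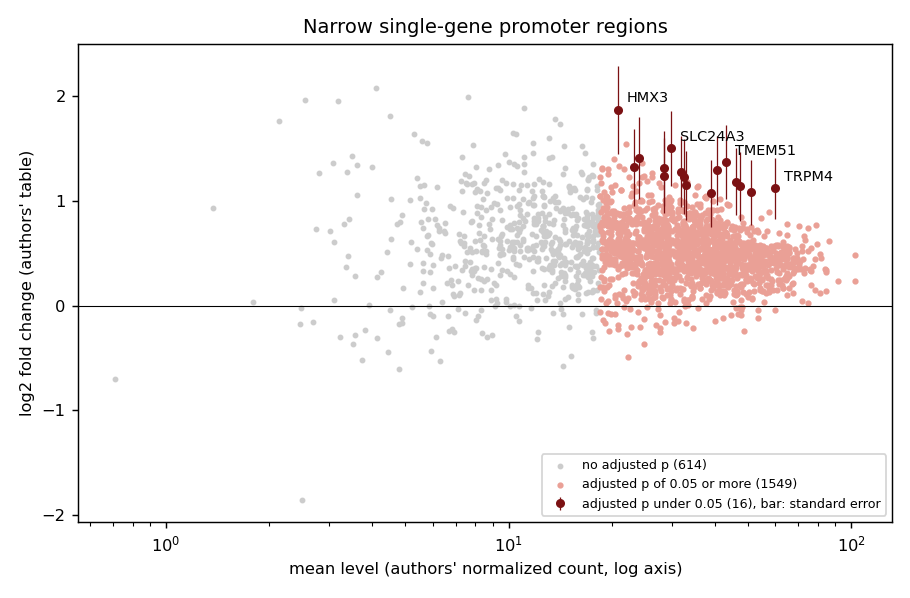
Log2 fold change of each narrow promoter region in the authors' deposited table (vertical axis) against its mean level (horizontal log axis), with the standard error drawn for the 16 regions with an adjusted p under 0.05. Most points lie above 0, and the called regions lie between 1.07 and 1.87.

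At the same mean level the medians of narrow and mid-width promoters lay close from a level of 25 upwards, and regions away from starts lay lower, by less as the level rose. At mean levels of 18 to 25 the median log2 fold change was 0.60 in 343 narrow promoter regions and 0.32 in 5293 regions of under 2000 bases away from starts, in which the median width was similar (1277 and 1403 bases). At levels of 25 to 35 these medians were 0.52 and 0.32, at 35 to 50 0.48 and 0.35, and at 50 to 75 0.42 and 0.38. Mid-width promoters had 0.46 in 24 regions at levels of 18 to 25, 0.52 at levels of 25 to 35, 0.41 at 35 to 50, 0.39 at 50 to 75 and 0.35 at 75 to 110, where narrow ones had 0.60, 0.52, 0.48, 0.42 and 0.35. Width and level moved together among promoters, and the part of each in the fold changes was not tested.

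**Figure D2:**
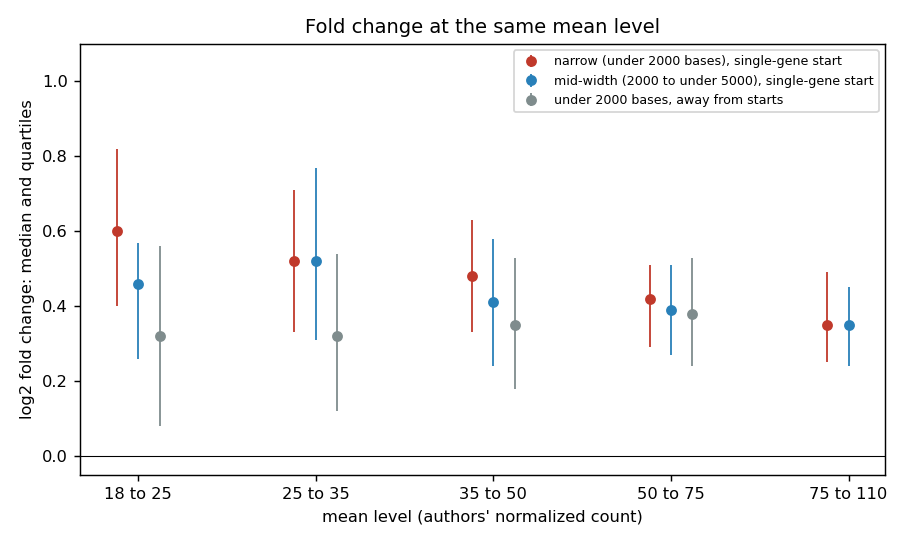
Median log2 fold change with quartiles (vertical axis) in bins of mean level (horizontal axis) for narrow promoters, mid-width promoters and regions of under 2000 bases away from starts, drawn where a bin holds at least 20 regions. Narrow promoters fall from 0.60 to 0.35 with level, and lie nearer to mid-width promoters than to regions away from starts below a level of 50.

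Most of these genes also had other regions assigned to them. In 776 genes with a narrow promoter region and at least 1 further region with an adjusted p, the start region had a median log2 fold change of 0.52 and the median of the gene's other regions was 0.32. The start region was the higher in 554 of these genes, or 71.4%. The corresponding share was 58.0% for genes with a mid-width start region and 54.2% for genes with a broad one, whose start regions had medians of 0.37 and 0.30 against 0.31 and 0.29 in the other regions.

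A total of 16 narrow promoter regions had an adjusted p under 0.05 in the authors' deposited table. This is 1.02% of the tested ones, a smaller share than the 1.67% of all tested regions. All 16 were positive, and over all tested regions 1.65% were called and positive and 0.0192% called and negative. At an unadjusted p under 0.05 there were 384 narrow promoter regions (24.5%), again all positive, where 17.9% of all regions were positive at that level and 0.475% negative. Fold changes were larger than in wider promoters and so were their errors: the median standard error in the authors' deposited table was 0.34 in narrow promoter regions, 0.26 in mid-width ones and 0.22 in broad ones. Calls made up 0.762% of mid-width and 1.49% of broad single-gene start regions.

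The called regions are described by the roles of their genes, a grouping made after the values were seen, beginning with neural and developmental genes. HMX3, a homeobox factor of the inner ear and hypothalamus, had a log2 fold change of 1.87 ± 0.42 (standard error) and an adjusted p of 0.00395 in the authors' deposited table, at a mean level of 20.8 in a region of 1481 bases (chr10:123135241-123136722). SLC24A3, a potassium-dependent sodium and calcium exchanger, had 1.50 ± 0.36 at a level of 29.8 (chr20:19211700-19213513, adjusted p 0.00893 in the authors' deposited table). These were the 2 narrow promoter regions with an adjusted p under 0.01, a threshold that 0.351% of all regions passed. NPAS1, a neuronal transcription factor (chr19:47019581-47021389), had 1.29 ± 0.33, NTSR1, the neurotensin receptor (chr20:62708397-62709386), 1.32 ± 0.37 and MAPT, the microtubule-binding protein tau (chr17:45893982-45895483), 1.24 ± 0.36 in the authors' deposited table. The NTSR1 region, 989 bases wide, was the 1 called region narrower than 1000 bases.

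Other calls lay at genes of secreted ligands and guidance or Wnt signalling. BMP6, a bone morphogenetic protein (chr6:7726131-7727867), had a log2 fold change of 1.41 ± 0.39 (standard error), FGF5, a fibroblast growth factor (chr4:80265438-80267197), 1.31 ± 0.36 and INHBE, a subunit of the activins (chr12:57454273-57456181), 1.28 ± 0.34 in the authors' deposited table. ADM2, a peptide of the calcitonin family (chr22:50481094-50482849), had 1.15 ± 0.33 and SEMA4F, a semaphorin of axon guidance (chr2:74653683-74655098), 1.23 ± 0.36. KREMEN2, a receptor for the Wnt antagonist Dickkopf (chr16:2963158-2965005), had the smallest fold change among the calls, 1.07 ± 0.32, and the adjusted p nearest to the threshold, 0.0479 in the authors' deposited table.

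The other calls lay at TMEM51 (chr1:15152575-15154486), with 1.37 ± 0.35 (standard error), ADGRE2, an adhesion receptor of myeloid cells (chr19:14775748-14777378), with 1.18 ± 0.32, and TRIM7, a ubiquitin ligase (chr5:181203933-181205808), with 1.14 ± 0.33 in the authors' deposited table. TRPM4, a calcium-activated cation channel (chr19:49157023-49158949), had 1.12 ± 0.29 at 59.9, the highest mean level among the calls, and BATF3, a transcription factor of the AP-1 superfamily (chr1:212698690-212700654), 1.08 ± 0.31. Adjusted p-values of the 16 calls ran from 0.00395 to 0.0479 in the authors' deposited table. MAPT, SEMA4F, ADGRE2 and ADM2 fall outside the naming rule and were named after their values were seen.

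With the median of 0.32 over all tested regions subtracted from each fold change and the authors' standard errors kept, 0 of the 16 passed, where 0.124% of all regions did, and the lowest adjusted p was 0.104 at HMX3 (Benjamini-Hochberg adjustment over the same 36436 regions). After this centring 57 of the 1565 tested narrow promoter regions had an unadjusted p under 0.05 in either direction, 2 of them below the median. Over all tested regions 2.60% lay above the median at that level, a share that leaves out those below it. Of the 1565 regions, 1200 (76.7%) lay above the median of all regions, by 0.17 at their own median.

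The authors' deposited table assigns 62 other regions to the 16 called genes. Of the 62, 57 (91.9%) had positive changes, where 87.3% of all tested regions did. The 87.3% leaves out regions without an adjusted p, and only 31 of the 62 were tested. Of these 31, 3 (9.68%) were called, where 1.67% of all tested regions were. The genes were chosen by a call in the same libraries, so these shares are descriptions and no support for the calls. ADGRE2 had 1 other region, at -7097 bases (towards lower coordinates), with a log2 fold change of 1.16 ± 0.30 (standard error) in the authors' deposited table, which was also called. Of the 2 other regions of INHBE, the nearer, at -1570 bases with a mean level of 120, had 0.94 ± 0.24 in the authors' deposited table, and 1 of the 2 was called. At HMX3 neither of the 2 other regions had an adjusted p, and the nearer had -0.21 ± 0.95 at a mean level of 3.16. All 8 other regions of BMP6 and all 8 of NTSR1 were positive, with highest values of 1.04 and 0.79, and 1 of those of NTSR1 was called. The 3 other regions of BATF3 ran from -0.48 to 0.26. ADM2 had no other region.

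The negative end held small changes. The 5 most negative regions tested in the authors' deposited table lay at LRRC17 (-0.49 ± 0.38, standard error), PDE4B, a cyclic AMP phosphodiesterase (-0.37 ± 0.37), the complement gene C3 (-0.27 ± 0.39), SHROOM3, a regulator of cell shape (-0.25 ± 0.36), and GLMP, a lysosomal membrane protein (-0.24 ± 0.29). Each lay within about 1.3 standard errors of 0, and their unadjusted ps in the authors' deposited table ran from 0.192 at LRRC17 to 0.492 at C3.

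Which genes had narrow promoter regions differed between gene families. Over all genes with a single-gene start region 23.5% were narrow. The share was 66.7% for protocadherins, adhesion proteins of neurons (22 of 33), 56.2% for ion channels (27 of 48) and 39.1% for zinc finger genes (149 of 381). At the other end it was 0 of 55 for cytosolic ribosomal proteins and 0 of 19 for enzymes and regulators of sterol and fatty acid synthesis. It was 4.44% for mitochondrial ribosomal proteins (2 of 45), 6.67% for proteasome subunits (2 of 30), 8.70% for respiratory chain and ATP synthase genes (4 of 46) and 11.3% for subunits of the general transcription machinery (8 of 71). Olfactory receptors, with 85 genes in the authors' deposited table, had no start region of any width. These shares use width alone, and no test of them was made.

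**Figure D3:**
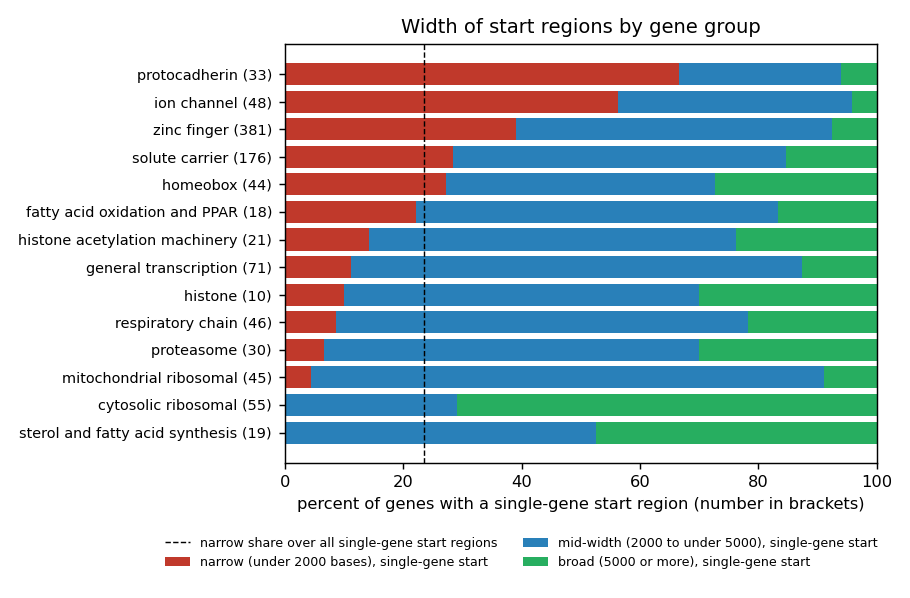
Share of narrow, mid-width and broad regions (horizontal axis, percent) among genes with a single-gene start region, for gene groups with at least 10 such genes (vertical axis). The dashed line at 23.5% is the narrow share over all such genes, passed by protocadherins, ion channels, zinc finger genes, solute carriers and homeobox genes.

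Zinc finger genes, many of which encode DNA-binding repressors, formed the largest of these groups, with 138 regions with an adjusted p. Their median log2 fold change was 0.42, below the 0.49 of all narrow promoter regions, and 0.37 in the wider start regions of the same family. Of the 138, 135 were positive and 0 passed the threshold (1.67% of all regions did). An unadjusted p under 0.05 was found for 24 (17.4%), all positive. This share was near the 17.9% of all tested regions and below the 24.5% of tested narrow ones. The 3 with the highest level were ZNF579, with a log2 fold change of 0.35 ± 0.29 (standard error), ZNF511, with 0.15 ± 0.26, and ZNF85, with 0.20 ± 0.24, in the authors' deposited table. The family was concentrated on chromosome 19, which held 10.8% of narrow promoter regions and 5.97% of the wider ones. Of its 236 narrow regions 98 were at zinc finger genes, and the median over its 189 regions with an adjusted p was 0.46, near the low end of the range over chromosomes (0.45 to 0.59).

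Ion channel genes had a median log2 fold change of 0.68 in 14 tested narrow promoter regions and 0.56 in 21 wider ones. The gene groups were not matched for mean level. Its median over narrow regions, tested or not, was 19.1 for ion channels, 26.5 for solute carriers and 30.9 for homeobox genes. For protocadherins it was 22.0 and for zinc finger genes 41.1. Of the 14 tested ion channel regions, 6 (42.9%) had an unadjusted p under 0.05 with a positive change. The share was 17.9% over all tested regions and 24.5% over tested narrow ones. Of the 3 with the highest level, KCNC4, a voltage-gated potassium channel, had 1.00 ± 0.31 (standard error) with an adjusted p of 0.0625 in the authors' deposited table, KCNIP4, a channel-interacting protein, 0.44 ± 0.31 and KCNH5 0.31 ± 0.31. Of these KCNC4 was the 1 with an unadjusted p under 0.05. GABRE, a subunit of GABA receptors named after its values were seen, had the largest tested change of the list, 1.23 ± 0.39 with an adjusted p of 0.0634 in the authors' deposited table. TRPM4, a call, was not in this list, which was read from family prefixes. Homeobox genes had a median of 0.67 in 8 narrow regions and 0.38 in 32 wider ones. NKX2-2, a neural tube factor, had 0.97 ± 0.32, DLX4 0.73 ± 0.30 and NKX2-4 0.54 ± 0.34, and none passed the threshold in the authors' deposited table. HMX3 was not in this list. Of the neuronal markers, GAP43, a growth cone protein, had 0.95 ± 0.39 and NEFL, a neurofilament subunit, 0.82 ± 0.41. Their adjusted p-values in the authors' deposited table were 0.182 and 0.264 (unadjusted 0.0158 and 0.0465). These were the 2 tested narrow regions of that list, too few to set against the 24.5% of tested narrow ones. Its other narrow region, at MAP2, had 0.52 ± 0.49 and no adjusted p.

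Solute carriers, membrane transporters, had a median log2 fold change of 0.64 in 34 tested narrow promoter regions and 0.37 in 126 wider ones. SLC24A3 was the 1 call among the narrow ones. A positive change with an unadjusted p under 0.05 was found in 11 of the 34 (32.4%). This compares with 17.9% of all tested regions and 24.5% of tested narrow ones. The 3 with the highest level were SLC36A4 (0.44 ± 0.27, standard error), SLC12A7 (0.24 ± 0.30) and SLC35B4 (0.50 ± 0.27) in the authors' deposited table. Protocadherins had a median of 0.48 in 18 narrow regions and 0.28 in 11 wider ones, with 18 of 18 positive and 0 calls. Of the 18, 3 (16.7%) had an unadjusted p under 0.05, near the 17.9% of all tested regions and below the 24.5% of tested narrow ones. PCDHB2, PCDHB5 and PCDHB6, with 0.48 ± 0.31, 0.41 ± 0.31 and 0.62 ± 0.32 in the authors' deposited table, lie in 1 cluster of related genes on chromosome 5. Whether reads were split between them was not tested. The call shares in these groups rest on few regions and are read against the 1.67% of all regions.

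In the list of fatty acid oxidation genes and targets of the PPAR fatty acid receptors, 4 of 18 single-gene start regions were narrow (22.2%), close to the 23.5% over all genes. PPARD and PPARG, which encode receptors, had log2 fold changes of 0.13 ± 0.31 (standard error) and 0.42 ± 0.42 in the authors' deposited table, and ACADS, the dehydrogenase of short-chain acyl-CoA, 0.43 ± 0.31. The fourth, too low in level for an adjusted p (mean level 10.4), was ACADL, the dehydrogenase of long-chain acyl-CoA, with 1.35 ± 0.58 and an unadjusted p of 0.0199 in the authors' deposited table; it was named after its values were seen. The 14 wider regions of this list had a median of 0.45. Of 21 genes of the histone acetylation machinery 3 were narrow (14.3%), all deacetylases: HDAC11 (0.44 ± 0.30), HDAC8 (0.55 ± 0.33) and HDAC10 (0.06 ± 0.33) in the authors' deposited table. None of the 6 tested regions of these lists had an unadjusted p under 0.05.

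The mitochondrial ribosome, proteasome, respiratory chain and transcription lists held 16 narrow regions among 192 single-gene start regions (8.33%). All 16 were tested and 0 were called, a number too small to set against the 1.67% of all regions. Of the 16, 3 (18.8%) had an unadjusted p under 0.05 with a positive change. The share was 17.9% over all tested regions and 24.5% over tested narrow ones. MRPL11 and MRPS9, of the mitochondrial ribosome, had log2 fold changes of 0.05 ± 0.31 and 0.21 ± 0.31 (standard error) in the authors' deposited table, and PSMB6 and PSME1, of the proteasome and its activator, 0.33 ± 0.29 and 0.25 ± 0.31. The respiratory chain genes UQCRC1, NDUFV3 and NDUFA12 had 0.50 ± 0.27, 0.50 ± 0.30 and 0.43 ± 0.28. In the transcription machinery 8 of 8 narrow regions were positive with a median of 0.47, and the 3 with the highest level were MED16 of the Mediator complex (0.44 ± 0.28), TAF1C (0.56 ± 0.27) and TAF7 (0.36 ± 0.26), in the authors' deposited table.

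The position of the gene start inside the region could be read for 1768 narrow promoter regions (81.1%), in which exactly 1 end of the RefSeq gene lay in the region. Taking that end as the start gave the strand of RefSeq in 1351 of 1352 genes with a known strand. A median of 530 bases of the region lay upstream of the start (quartiles 328 and 727) and 861 downstream (543 and 1128), and 73.2% reached further downstream than upstream. In mid-width promoters the medians were 938 and 2094 bases with 88.4% reaching further downstream, and in broad ones 1697 and 4751 bases with 86.7%. The median share of the region that lay downstream was 61.1% in narrow, 69.1% in mid-width and 74.6% in broad promoters. The fold change of narrow promoter regions varied little with this position: the median log2 fold change was 0.51 in 246 regions with 25 to 50% downstream, 0.49 in 747 with 50 to 75% and 0.47 in 282 with 75% or more.

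Narrow promoter regions also stood further from other regions. The nearest other region lay at a median of 9077 bases, compared with 4419 for mid-width and 1880 for broad promoters, and 7.85%, 16.6% and 29.7% had another region within 1000 bases. No 2 regions of the authors' deposited table lay closer than 501 bases. A median of 2 other regions was assigned to each gene with a narrow start region, 3 to each with a mid-width and 5 to each with a broad one, and 24.6%, 18.9% and 10.2% of these genes had no other region. Gene length was close, with medians of 31.7, 34.4 and 35.6 kb.

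Promoter sequence could be read for fewer genes. Of the 2179 genes 1656 matched a promoter in the RefSeq table, and in 1360 (62.4%) its start lay inside the region. This is under the 80% set for such a check, and so are the 75.8% of mid-width and 76.6% of broad promoters. A comparison of base content over all regions of these classes is therefore void, and the values below describe the matched promoters alone. The GC content of matched narrow promoters had a median of 65.3% (quartiles 59.0 and 72.3%), close to 66.3% in 3992 matched mid-width and 67.0% in 1395 matched broad promoters, and above 56.3% in 6166 promoters of protein-coding genes with no start region. The ratio of observed to expected CpG dinucleotides was 0.78, lower than 0.86 and 0.87 in mid-width and broad promoters and higher than 0.36 in genes with no start region. A CpG ratio well above that of bulk DNA is the mark of CpG island promoters.

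Motifs were counted on both strands of the 300 bases from 250 before to 50 after the start, and a match is a string of letters and not a binding site. The GC box GGGCGG, bound by SP1 family factors, was present in 70.0% of the matched narrow promoters, 74.6% of mid-width and 74.0% of broad ones, and in 43.8% of all 27305 promoters in the RefSeq table. The ETS core CCGGAAG was found in 11.6% of narrow, 21.3% of mid-width and 17.6% of broad promoters, and in 10.6% of all. The part ATGGCGG of the YY1 motif was found in 6.69%, 11.9% and 10.1% and in 5.68% of all, the part GCGCATG of the NRF1 motif in 6.18%, 8.84% and 6.45% and in 4.58% of all, and the part CTCGCGA of the ZBTB33 motif in 2.57%, 4.91% and 5.30% and in 2.31% of all. ETS, NRF1 and YY1 factors are known from promoters of housekeeping genes.

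The boxes of the core promoter came next. CCAAT was present in 33.8% of narrow, 35.3% of mid-width and 38.8% of broad promoters and in 35.6% of all, and the TATA box TATAAA in 5.66%, 4.31% and 7.81% and in 12.1% of all. Shares for the E-box CACGTG were 7.57%, 11.0% and 10.1% with 7.28% of all, and for the part TGACGTC of the cyclic AMP response element 4.78%, 6.64% and 5.88% with 3.55% of all. The AP-1 motif TGANTCA was found in 5.51%, 3.68% and 5.45% and in 7.90% of all, and the nuclear receptor motif AGGTCA, part of the elements that PPAR binds, in 11.2%, 8.89% and 7.67% and in 14.0% of all. No motif contains another, and matches of different motifs may share bases at their ends.

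**Figure D4:**
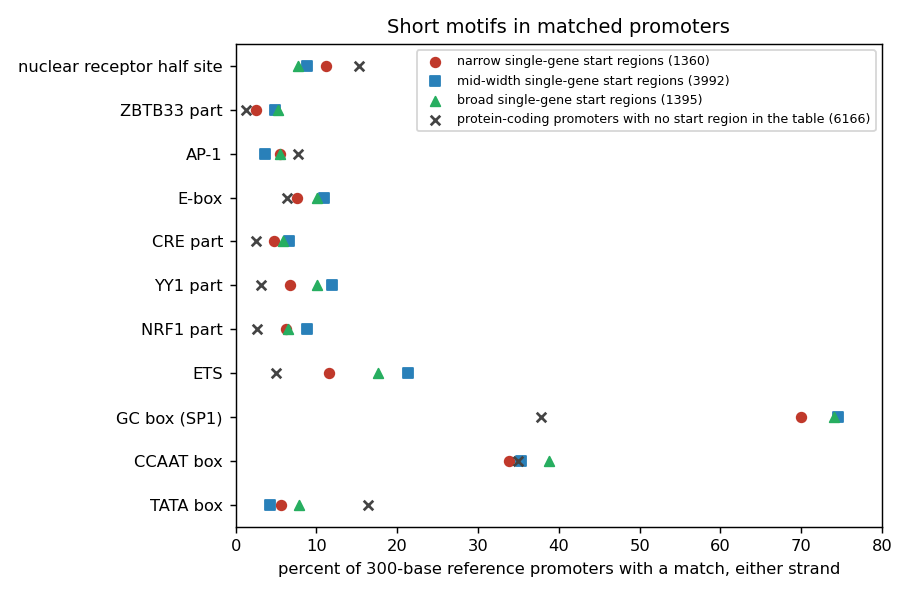
Percent of 300-base RefSeq promoters with a match on either strand (horizontal axis) for 11 short motifs (vertical axis), in matched promoters of narrow, mid-width and broad regions and in protein-coding genes with no start region. Narrow promoters lie between genes with no start region and mid-width promoters for every motif but CCAAT, among them the ETS motif (11.6%) and the YY1 part (6.69%).

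Among the matched promoters, those rich in GC had the larger fold changes. Among 1041 matched narrow promoters that were tested, the median log2 fold change was 0.43 in 75 with a GC content under 50%, 0.43 in 201 at 50 to 60%, 0.47 in 387 at 60 to 70%, 0.56 in 334 at 70 to 80% and 0.66 in 44 at 80% or more. Mid-width promoters went from 0.31 to 0.42 and broad ones from 0.28 to 0.32 between the same ends, so narrow promoters had the larger median in each of the 5 bins. The bins were not matched for mean level. Its medians over the bins were 31.4 to 37.9 in narrow, 72.5 to 83.9 in mid-width and 180 to 197 in broad promoters. Spearman's rank correlation of fold change with GC content across regions was 0.26 in narrow (n = 1041), 0.15 in mid-width (n = 3981) and 0.14 in broad promoters (n = 1393). With mean level it was -0.24 in narrow promoters, and with width -0.09. These regions share their libraries, so the correlations are descriptions, and the part of base content in the fold changes was not tested.

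**Figure D5:**
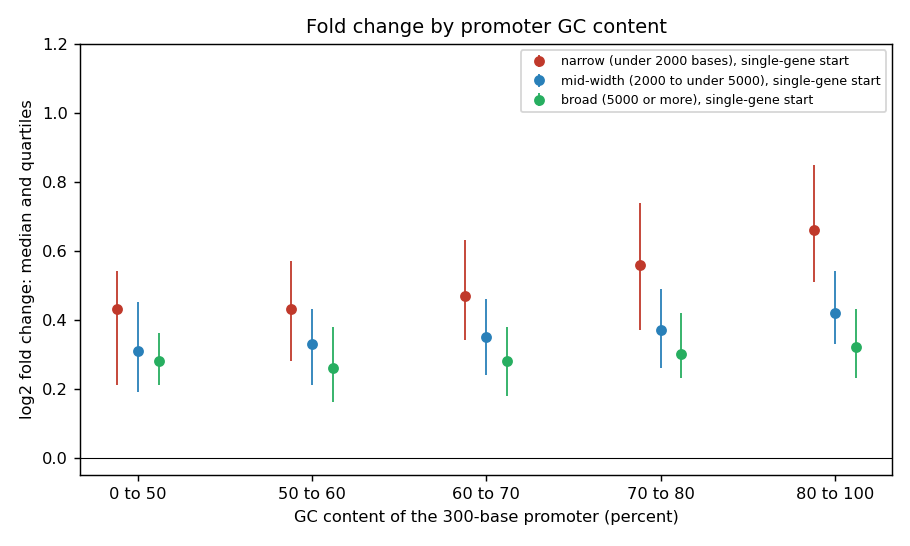
Median log2 fold change with quartiles (vertical axis) in bins of GC content of the 300-base promoter (horizontal axis) for narrow, mid-width and broad single-gene start regions. Narrow promoters go from 0.43 to 0.66 and lie above the wider classes in every bin shown. The classes are not matched for mean level within a bin.

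Differences by motif were smaller. Narrow promoters with a GC box had a median log2 fold change of 0.50 (752 regions) and those without it 0.45 (289), with median GC contents of 69.3% and 58.7%. With an ETS match the median was 0.44 (146 regions) and without it 0.50 (895), with GC contents of 63.0% and 66.3%. With the nuclear receptor motif it was 0.49 in 112 regions, the same as in the 929 without it.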

How the data were processed

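H3K27ac chromatin immunoprecipitation sequencing of A375 cells was deposited as 1 table of the authors' comparison. The submitters' processing notes name Trim Galore, cutadapt, FastQC, Bowtie2, Picard, MACS2, featureCounts, DESeq2, bedtools 2.29.1 and the build hg38, with no role or order. Per the file headers, the authors give a mean level (a signal: the mean normalized count), a log2 fold change with its standard error, and a score that equals their ratio to within 3.38e-14. The deposited p-value is the two-sided normal one of that score, and Benjamini-Hochberg adjustment over the regions whose adjusted value lay below 1 gave the deposited values back to within 1.58e-14, so a value of 1 was read as not computed. Depth per library is unknown, and 0 columns with values of 1 library were set aside.

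The design provided for edgeR on counts per library, which could not be run without such values; the authors' comparison was described instead. Python 3.11.15, pandas 2.3.3 and scipy 1.17.1 were used. Of the 2179 gene symbols 2033 were current in RefSeq (GRCh38.p14), 112 older and 34 unmatched. The centring and adjustment steps were tested on simulated data. Named regions were the 8 largest and 4 smallest fold changes among the calls, the 6 highest levels (1 of them not reported here), the 5 most negative, the 3 on either side of the width limit, the 3 narrowest with an adjusted p and up to 3 per gene list by level. The members and lists were chosen with earlier results of these data known.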

Additional observations from a re-analysis of the deposited data

How the results depend on the processing

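The 16 calls became 2 at an adjusted p under 0.01 and 5 with adjustment over all distinct regions or over all lines. Over all distinct regions, where 0.274% passed, the 5 were HMX3, SLC24A3, TMEM51, NPAS1 and TRPM4. Centring on the median of all regions with an adjusted p, or of single-gene start regions, left 0. In the former, 57 of 1565 had an unadjusted p under 0.05 in either direction, 2 of them below the median. Over all tested regions 2.60% lay above the median at that level, a share that leaves out those below it. A width limit of 1000, 1500 or 3000 bases gave 1, 3 or 31 calls, by construction. The count was 16 when the fold change had to reach 1 on the log2 scale, when the level had to reach 20, with starts of 1 or more genes and with genes of a single start region. The median log2 fold change of 0.49 became 0.52 without a filter and with levels from 10 up, and 0.54, 0.53 and 0.43 with the 3 width limits; the share of positive regions became 95.5% with no filter and 92.9% and 95.8% at the limits of 1000 and 1500 bases. Genes of the lists with a narrow region fell from 294 to 57 at the limit of 1000 bases. At that limit, in 266 matched promoters, the ETS motif was in 4.14%, the YY1 part in 2.26%, the NRF1 part in 3.01%, CCAAT in 22.9% and the TATA box in 8.65%. Of 69 regions named, 17 with fold changes under the median changed sign on centring, by construction.

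No paired analysis was possible because no single library has values of its own here, and the fits per library planned with edgeR and DESeq2, with a replicate block or without each replicate, were not run. The median standard error of a tested narrow region was 0.34, and depth per library is unknown.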

Other observations

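Markers of other cell types were also listed at greater length than the 18 described at the beginning. These longer lists had 12 single-gene start regions, of which 7 (58.3%) were narrow, beside 23.5% over all genes. Keratinocyte and muscle markers had no start region, and the 3 of myeloid markers were wider. Lymphoid markers had CD8A (log2 fold change 0.74 ± 0.58, standard error) and endothelial markers KDR (0.26 ± 0.49) in the authors' deposited table. Hepatocyte markers had SERPINA1 (0.37 ± 0.46) and APOA1 (0.06 ± 0.54), and the neuronal markers also had MAP2 (0.52 ± 0.49). None of these 5 regions reached the level at which adjusted values were given. The keratin genes KRT23 and KRT16 both had 0.25, with standard errors of 0.38 and 0.42, and the histone gene HIST1H1A had 0.29 ± 0.43 at a mean level of 16.5. Of 65 histone genes with a start region 55 shared it with another gene, which left 10 for the width classes. The melanocyte list had 0 narrow regions among 2 single-gene start regions, and the invasive melanoma list 1 among 9.

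The X chromosome had 33.0% narrow regions among its single-gene start regions (100 of 303) and chromosome 19 35.8% (236 of 659), where the other chromosomes lay between 18.6 and 28.6%. The highest chromosome median of the log2 fold change in narrow promoter regions was 0.59, on chromosome 15 (45 regions).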
